A study of Mus musculus with 8 samples.

Results

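The eosinophil granule proteins were followed at the RNA level through 5 genes, Epx, Prg2, Prg3, Ear2 and Ear10, which are 5 of the 12294 genes in the deposited expression table. They were taken by symbol, and they were chosen with earlier results of these data in view: Epx and Prg3 had stood out in AG120 against vehicle, and Ear2 in AZA against vehicle. Values of the 5 genes in contrasts that hold the vehicle libraries are therefore a description, and no p-value is printed for them. Any count printed there, of called genes or by unadjusted p, restates the choice and is not read as a result. The samples were I1DN leukemic progenitors, sorted as cKit+/Cd11b- from transplanted mice. Treatment lasted 5 days and was vehicle, AG120 (also AG-120 or ivosidenib, which blocks the mutant form of the enzyme IDH1), AZA (the DNA methyltransferase inhibitor azacitidine) or AG120 with AZA (AG120_AZA), and each group had 2 libraries. All 4 groups shared the I1DN leukemia and the transplant. The labels do not give the alleles of the leukemia, the hosts' strain or age, or whether each library came from a different mouse, so the errors measure the spread between these libraries.

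Eosinophils store their toxic proteins in large secretory granules. Eosinophil peroxidase (Epx) makes oxidants from halides, major basic protein (Prg2) and its homologue (Prg3) are cationic proteins that damage membranes, and the eosinophil-associated ribonucleases (the Ear genes) are secreted members of the ribonuclease A family. The genes are switched on in bone marrow progenitors that commit to the eosinophil lineage, under the transcription factors GATA-1, C/EBP and PU.1, and interleukin 5 then drives the cells' expansion. Prg2 and Prg3 are also known from basophils, and Ear genes from macrophages and other myeloid cells.

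The genes lie at 3 places in the mouse genome (GRCm38, gene spans of GENCODE M21). Prg2 (chr2:84980461-84983632) and Prg3 (chr2:84988215-84993886) are neighbours on the plus strand. Epx is at chr11:87864000-87875536 on the minus strand. Ear2 (chr14:44102654-44103534, plus strand) and Ear10 (chr14:43922720-43923559, minus strand) belong to a cluster of ribonuclease genes on the same chromosome. The 250 bases before the start of 4 of these genes, from RefSeq on GRCm38.p6, are shown because Epx and Prg3 had like profiles over the 8 libraries, whereas Ear2 and Ear10, whose promoter windows are alike, did not. Capitals mark matches to 4 motifs: the GATA motif (the letters GATA with A or T before them and A or G after them), C/EBP (TTNNGNAA) and PU.1 (GAGGAA) on either strand, and a TATA box (TATAA followed by A or G) on the gene's strand.
Epx: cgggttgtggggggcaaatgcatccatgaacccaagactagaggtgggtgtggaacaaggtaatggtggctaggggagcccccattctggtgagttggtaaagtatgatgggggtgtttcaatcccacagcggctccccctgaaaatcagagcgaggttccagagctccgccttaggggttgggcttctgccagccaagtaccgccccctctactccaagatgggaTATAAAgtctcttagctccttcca
Prg3: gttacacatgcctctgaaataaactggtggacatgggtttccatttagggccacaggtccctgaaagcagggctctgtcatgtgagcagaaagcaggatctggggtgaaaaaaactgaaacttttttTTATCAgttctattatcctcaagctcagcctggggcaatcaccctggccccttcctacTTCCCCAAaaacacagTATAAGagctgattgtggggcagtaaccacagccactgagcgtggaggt
Ear2: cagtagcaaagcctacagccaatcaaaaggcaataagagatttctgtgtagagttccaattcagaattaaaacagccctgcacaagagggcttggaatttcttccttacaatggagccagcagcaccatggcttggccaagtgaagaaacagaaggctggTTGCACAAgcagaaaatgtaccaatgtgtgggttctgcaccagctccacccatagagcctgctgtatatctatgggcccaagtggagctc
Ear10: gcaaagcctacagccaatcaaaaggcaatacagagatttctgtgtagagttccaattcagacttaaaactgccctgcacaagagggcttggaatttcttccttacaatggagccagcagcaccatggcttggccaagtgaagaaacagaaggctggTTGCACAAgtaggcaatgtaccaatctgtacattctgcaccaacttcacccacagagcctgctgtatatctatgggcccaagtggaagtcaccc
The Epx window (chr11:87875537-87875786, minus strand) held a TATA box match and none of the other motifs. The Prg3 window (chr2:84987965-84988214, plus strand) held 1 GATA, 1 C/EBP and 1 TATA box match. The windows of Ear2 (chr14:44102404-44102653, plus strand) and Ear10 (chr14:43923597-43923846, minus strand) each held the same C/EBP match and no other, and were 92.4% identical when aligned. Over 32841 promoter windows of the same length, 26.5% held the GATA motif, 36.9% the C/EBP motif, 23.3% the PU.1 motif and 11.2% the TATA box. These matches describe letters, not binding.

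Transcripts were counted with QuantSeq, which reads the 3' ends of polyadenylated RNA. Values are log2 CPM, the log2 of counts scaled to a common total, and the authors had given all libraries one distribution, so library totals are lost and the depth is unknown. Genes with equal counts in a library share a value, and the number of distinct values below a gene (its value classes) is a lower limit on its reads above the lowest class. The median gene stood 105 to 149 classes above the lowest value, and 100 to 376 genes per library were at that value. Replicates correlated at 0.921 to 0.936 (Pearson r across genes, which are not independent replicates). Of the sort markers, Kit was present in each library at 4.26 to 6.65 log2 CPM, and Itgam, which encodes CD11b, at 2.10 to 4.53. In bulk RNA a change in the share of cells of a type and a change in RNA per cell cannot be told apart.

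Epx, Prg2 and Prg3 had their highest levels with AG120 alone, lower levels with both drugs, and their lowest levels without AG120. Epx measured 0.56 and 3.28 log2 CPM in the vehicle libraries, 5.80 and 7.17 in AG120, 3.03 and 4.13 in AZA, and 5.80 and 4.76 in AG120_AZA. Each of the 4 libraries with AG120 was above each of the 4 without it. Within those sets the groups overlapped: AZA with vehicle, and AG120_AZA with AG120. The share of all genes with such a split by AG120 is not given here. The split includes libraries that the genes were chosen on, so for Epx, Prg2 and Prg3 it is a description. The depth behind Epx ran from 8 value classes in vehicle replicate 1 to 937 in AG120 replicate 2.

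Prg2, the major basic protein gene, had log2 CPM values of 4.78 and 8.42 in vehicle, 10.00 and 11.02 in AG120, 7.77 and 7.05 in AZA, and 10.05 and 8.74 in AG120_AZA. In AG120 it lay above 99.1% and 99.5% of all measured genes of its library, against 57.0% and 96.0% in vehicle. The 4 libraries with AG120 again lay above the 4 without it, but the margin was narrow, since vehicle replicate 2 (8.42) came close to AG120_AZA replicate 2 (8.74).

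Prg3 had log2 CPM values of 1.73 and 3.93 in vehicle, 5.93 and 7.12 in AG120, 3.46 and 2.79 in AZA, and 5.58 and 4.42 in AG120_AZA. The same split held, and for Prg3 the AG120_AZA libraries also lay below both AG120 libraries, as they did for 20.6% of all genes. The order of group means was the same for these 3 genes: AG120, AG120_AZA, AZA, vehicle.

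**Figure D1:**
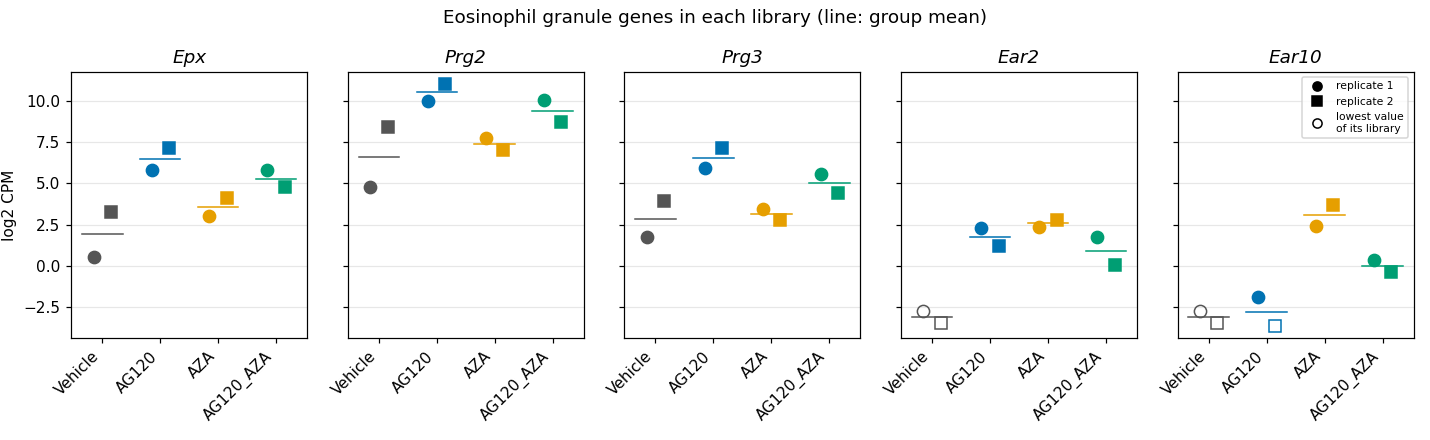
Log2 CPM (vertical axis) of the 5 eosinophil granule genes in each of the 8 libraries by treatment group (horizontal axis); circles are replicate 1, squares replicate 2, lines group means, and open symbols are at the lowest value of their library. Epx, Prg2 and Prg3 are higher in the 4 libraries with AG120 than in the 4 without it, whereas Ear10 is highest in AZA, at 2.45 and 3.69.

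Against vehicle, AG120 libraries were higher by 4.56 ± 0.78 (SE) on the log2 scale for Epx, 3.91 ± 0.88 for Prg2 and 3.70 ± 0.67 for Prg3, or 23.7-fold, 15.0-fold and 13-fold. The number called higher by limma at an adjusted p below 0.05, 2 of 5 beside 0.358% of all genes, restates that Epx and Prg3 were chosen on this contrast. Without vehicle replicate 1, the library with the lowest values, the differences were 3.21, 2.09 and 2.60 and none of the 5 was called. With both drugs against vehicle the differences were 3.36 ± 0.78 for Epx, 2.80 ± 0.88 for Prg2 and 2.17 ± 0.67 for Prg3. The number called higher there, 1 of 5 beside 1.63% of all genes, rests on the same vehicle libraries. Without vehicle replicate 1 these differences were 2.0, 0.98 and 1.07, and none was called.

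The difference between AG120_AZA and AZA uses no library of AG120 against vehicle. It thus bears on Epx, Prg2 and Prg3 in libraries that did not choose them. Its SE, interval and p-value are not free of the choosing libraries, since the fit took the spread from all 8 libraries. For Prg2 the vehicle libraries had the largest SD, 2.57, against 0.51 for AZA, 0.93 for AG120_AZA and 0.72 for AG120. Prg3 was 1.88 ± 0.67 (SE) higher (95% interval 0.41 to 3.35, limma adjusted p = 0.163). Prg2 was 1.99 ± 0.88 higher (0.05 to 3.92, adjusted p = 0.245), and Epx was 1.70 ± 0.78 higher (-0.01 to 3.41, adjusted p = 0.259). For each of these 3 genes both AG120_AZA libraries were above both AZA libraries, as they were for 26.5% of all genes. Limma called 0 of the 5 genes in this comparison, beside 2.26% of all genes in either direction. At an unadjusted p below 0.05 it counted 3 of 5, beside 19.6% of all genes: Prg3 and Prg2, which were higher, and Ear10, which was lower. The Ear10 entry is a description and no test, since Ear10 was highest in the AZA libraries compared here and near the lowest value elsewhere. The direction of the Epx, Prg2 and Prg3 differences was thus that of AG120 against vehicle, with a size that did not pass the test. Prg2 passed it when the fit held only these groups (adjusted p = 0.0413) and when either vehicle library was left out (0.0464 and 0.0442); over the 15 alternatives its adjusted p ran from 0.0413 to 0.509.

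**Figure D2:**
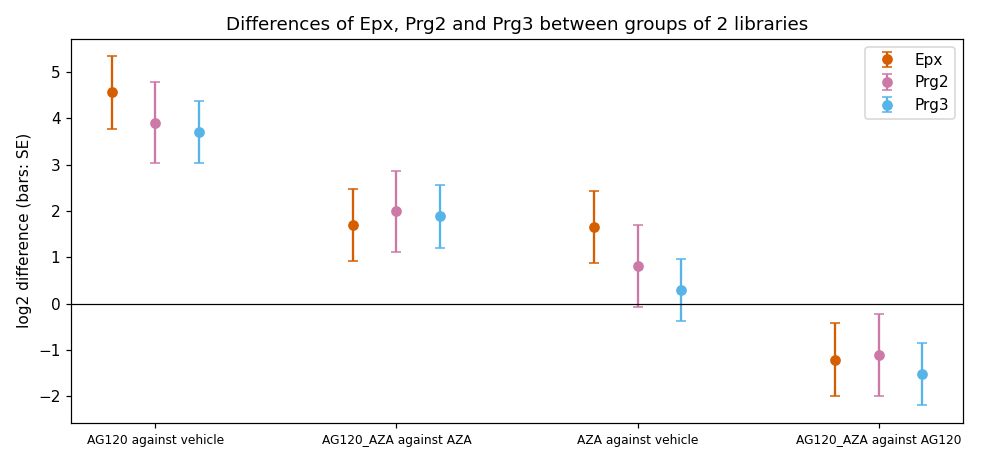
Log2 differences (vertical axis) of Epx, Prg2 and Prg3 between groups of 2 libraries for 4 comparisons (horizontal axis), with bars of 1 moderated SE. All 3 genes have positive differences where AG120 is added, from 3.70 to 4.56 against vehicle and from 1.70 to 1.99 against AZA, and negative ones where AZA is added to AG120.

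Over both AZA levels, the 4 libraries with AG120 exceeded the 4 without by 3.13 ± 0.67 (SE, log2) for Epx, 2.95 ± 0.66 for Prg2 and 2.79 ± 0.53 for Prg3, or 8.76-fold, 7.72-fold and 6.90-fold. This contrast includes the libraries that chose the genes, so the number called higher, 3 of 5 beside 3.38% of all genes, is no support for them. That number was 1 without AG120 replicate 1 or AG120_AZA replicate 1, and 0 when the fit had no mean-variance trend.

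The effect of AZA on these 3 genes had no steady sign. AZA against vehicle differed by 1.66 ± 0.78 (SE, log2) for Epx, 0.81 ± 0.88 for Prg2 and 0.29 ± 0.67 for Prg3. Limma called 0 of 5 here, and 0.00% of all genes. An unadjusted p below 0.05 was found for 3.51% of all genes and 2 of 5, Ear2 and Ear10. Both were at the lowest value in the vehicle libraries, and Ear2 was chosen on this contrast. Without vehicle replicate 1 the Prg2 and Prg3 differences were -1.01 and -0.81. AZA added to AG120 gave -1.21 ± 0.78 for Epx, -1.11 ± 0.88 for Prg2 and -1.53 ± 0.67 for Prg3. Limma called 0 of 5 in that comparison and 0.00% of all genes; 1 of 5, Prg3, and 10.1% of all genes had an unadjusted p below 0.05, and the AG120 libraries are ones that Epx and Prg3 were chosen on. The interaction, which asks whether the AG120 difference is the same with and without AZA, was -2.87 ± 1.10 for Epx, -1.92 ± 1.25 for Prg2 and -1.82 ± 0.94 for Prg3. With 1 library left out it ran from -4.22 to -1.51 for Epx, -3.74 to -0.11 for Prg2 and -2.92 to -0.72 for Prg3. Limma called 0 of 5 and 0.00% of all genes. An unadjusted p below 0.05 was found for 6.22% of all genes and 2 of 5, Epx and Ear2. The interaction contains both differences the genes were chosen on, so it is a description for them. AZA over both AG120 levels gave 0.23 ± 0.67 for Epx, -0.15 ± 0.66 for Prg2 and -0.62 ± 0.53 for Prg3, where leaving out vehicle replicate 1 gave -0.60, -1.07 and -1.24. Limma called 0 of 5 and 0.00% of all genes there, and 1 of 5, Ear10, and 6.19% of all genes had an unadjusted p below 0.05. Ear10 was at the lowest value in both vehicle libraries and AG120 replicate 2, so its count is a description too.

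Of the 3 pairs of these genes, Prg2 and Prg3 kept the steadiest proportion. The log2 difference of Prg2 over Prg3 within a library ran from 3.89 to 4.49 in 7 libraries and was 3.05 in vehicle replicate 1. Epx over Prg3 ran from -1.16 in vehicle replicate 1 to 1.34 in AZA replicate 2, and Prg2 over Epx from 2.92 in AZA replicate 2 to 5.14 in vehicle replicate 2. Over the 8 libraries, with each gene centred on its mean, Prg2 and Prg3 differed by a root mean square of 0.44 log2, Epx and Prg2 by 0.61, and Epx and Prg3 by 0.70.

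Replicates of a group also differed in all 3 genes at once. Replicate 2 minus replicate 1 was 2.71 log2 for Epx, 3.63 for Prg2 and 2.20 for Prg3 in vehicle. The same gaps were 1.38, 1.02 and 1.20 in AG120, and -1.05, -1.31 and -1.16 in AG120_AZA. Ctsg, which encodes cathepsin G of the primary granules of neutrophil precursors, had gaps of the same sign in these groups: 1.84, 1.45 and -1.24. Mpo, the myeloperoxidase of the same granules, had gaps of 0.99, 0.61 and -1.07. In AZA the gaps were small or mixed: 1.10 for Epx, -0.72 for Prg2, -0.68 for Prg3, -0.20 for Ctsg and 0.28 for Mpo. The part of this shared spread in the differences between groups was not tested.

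The ribonuclease genes Ear2 and Ear10 followed another order, at much lower depth. Ear2 was at the lowest value in both vehicle libraries. It stood at 2.32 and 1.22 log2 CPM in AG120, 2.36 and 2.79 in AZA, and 1.74 and 0.08 in AG120_AZA. These rest on 32 and 14 value classes in AG120, 34 and 39 in AZA, and 25 and 4 in AG120_AZA. Ear2 was thus read above the lowest value in each of the 6 drug libraries and in neither vehicle library. This is a description, since Ear2 was chosen on AZA against vehicle and the share of all genes with this pattern is not given. Genes at the lowest value numbered 376 in vehicle replicate 1 and 209 in vehicle replicate 2, against 100 to 226 in the drug libraries. No fold against vehicle is given, since the lowest value has no fixed size.

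Ear10 was at the lowest value in both vehicle libraries and in AG120 replicate 2, and 2 value classes above it in AG120 replicate 1 (-1.90 log2 CPM). In AZA it stood at 2.45 and 3.69, on 36 and 71 classes, and in AG120_AZA at 0.39 and -0.34, on 10 and 3 classes. Ear10 was thus highest in both AZA libraries, where Epx, Prg2 and Prg3 were below each library with AG120. AG120_AZA against AZA gave -3.04 ± 1.36 (SE, log2) for Ear10 and -1.66 ± 0.96 for Ear2. Both are descriptions without a test. Ear2 was chosen on the same AZA libraries, and Ear10 stood more than 10 value classes above the lowest value only in them. Both AG120_AZA libraries lay below both AZA libraries for these 2 genes, as they did for 22.9% of all genes. On log2 of CPM plus 1, a scale that damps low values, the Ear10 difference was -2.22.

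**Figure D3:**
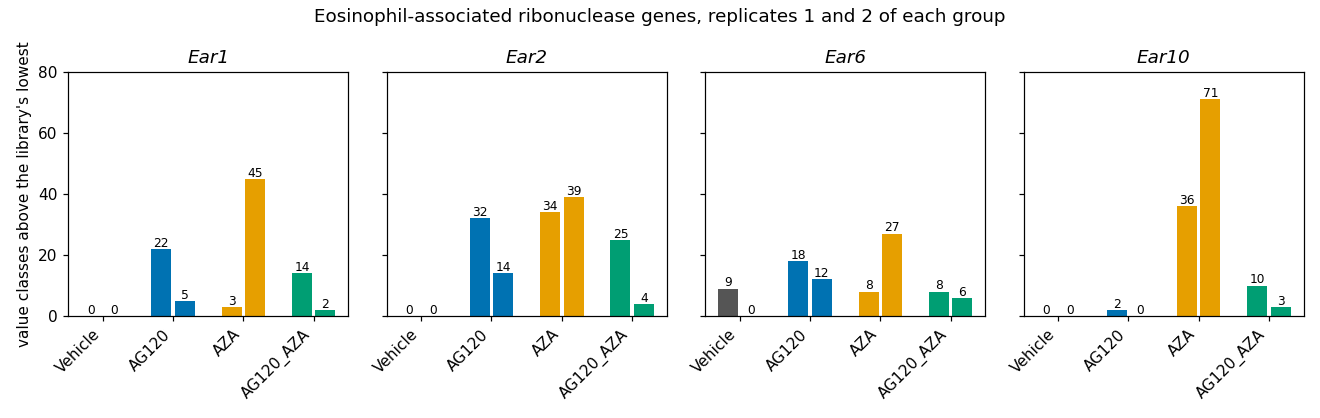
Depth of 4 eosinophil-associated ribonuclease genes: number of value classes above the lowest value of the library (vertical axis, a lower limit on reads), with replicates 1 and 2 as neighbouring bars in each treatment group (horizontal axis). Ear10 reaches 36 and 71 classes in AZA and at most 10 elsewhere, and Ear1, Ear2 and Ear10 are at 0 in both vehicle libraries.

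Part of the sequence of these copies is shared. The last 300 bases of the longest annotated transcripts, the part that QuantSeq reads, were 91.3% identical between Ear2 and Ear10 and 98.7% identical between Ear1 and Ear2, against 65.0% between Prg2 and Prg3. Of the 50-base words in the end of Ear2, 38.2% also occur in Ear1 and 13.1% in Ear10. The sources used here do not say how reads that fit several places were counted, so the levels of single Ear genes are uncertain. Of 10 other Ear and Rnase2 genes listed, 2 were in the table. Ear1 stood at 22 and 5 value classes in AG120, 3 and 45 in AZA, 14 and 2 in AG120_AZA, and 0 in both vehicle libraries. Ear6 stood at 9 and 0 classes in vehicle, 18 and 12 in AG120, 8 and 27 in AZA, and 8 and 6 in AG120_AZA. Neither was called in any of the 8 comparisons.

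Receptors and surface genes of eosinophils were split. With AG120 over both AZA levels, limma called 3.38% of all genes higher and 2.47% lower, the background for the lists given here and for other cell types. These lists were chosen with earlier results of these data known. The p-values of listed genes, here and below, therefore describe these libraries and are not independent tests. Of 11 measured receptors and surface genes, 3 rose and 0 fell, and 7 had positive differences (median 0.82 log2, against 0.01 over all genes). Il1rl1, the interleukin 33 receptor of eosinophils, basophils and mast cells, had log2 CPM values of 1.49 and 1.80 in vehicle, 5.68 and 4.83 in AG120, 2.62 and 1.97 in AZA, and 5.84 and 3.83 in AG120_AZA. It rose by 3.07 ± 0.44 (SE, limma adjusted p = 0.00255). All 4 libraries with AG120 were above all 4 without, a split whose share of all genes is not given. Alox15, the lipoxygenase of eosinophils and some macrophages, had log2 CPM values of -2.74 (the lowest value) and -1.49 in vehicle, 2.69 and 2.97 in AG120, 1.06 and 0.13 in AZA, and 3.49 and 3.85 in AG120_AZA. It rose (adjusted p = 0.00288), and the vehicle values rest on 0 and 2 classes, so its difference of 4.01 ± 0.59 depends on how the lowest values are scaled. AG120_AZA against AZA alone gave 3.07 ± 0.76 for Alox15 (adjusted p = 0.0610) and 2.54 ± 0.60 for Il1rl1 (adjusted p = 0.0544).

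Csf2rb2, the mouse beta chain specific to the interleukin 3 receptor, rose by 1.17 ± 0.29 (SE, log2; limma adjusted p = 0.0343), a call lost in 7 of 14 alternatives. Csf2rb, the beta chain shared by the receptors for interleukin 3, interleukin 5 and GM-CSF, differed by 0.43 ± 0.17 and did not pass (adjusted p = 0.167).

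Of the same 11 genes, Il5ra, Siglecf and Ccr3 were not called with AG120 over both AZA levels. Il5ra, the alpha chain of the interleukin 5 receptor, had log2 CPM values of 1.97 and 0.56 in vehicle, -0.09 and 1.53 in AG120, 1.50 and 2.91 in AZA, and -1.31 and 1.27 in AG120_AZA. The groups overlapped, and its difference with AG120 over both AZA levels was -1.39 ± 0.76 (SE; limma adjusted p = 0.304). Siglecf, a sialic acid binding lectin, stood between 6.09 and 7.14 in the 8 libraries and differed by -0.09 ± 0.22 (adjusted p = 0.841). Ccr3, the eotaxin receptor, was at the lowest value in vehicle replicate 2 and AG120 replicate 2, and reached at most 16 value classes. It differed by -0.70 ± 1.26 (limma adjusted p = 0.782). Il5ra stood at 4 to 42 classes, so low depth limits what the differences of Il5ra and Ccr3 can show.

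Of 12 transcription factors of the lineage, all measured, 1 rose and 1 fell with AG120 over both AZA levels (median -0.15 log2). Gata1, which acts in eosinophil, basophil, mast cell, erythroid and megakaryocyte precursors, had log2 CPM values of 7.40 and 6.42 in vehicle, 8.39 and 7.54 in AG120, 6.69 and 7.05 in AZA, and 8.79 and 9.25 in AG120_AZA. It rose by 1.60 ± 0.29 (SE; limma adjusted p = 0.00936), and also in AG120_AZA against AZA (2.15 ± 0.35, adjusted p = 0.0128). Unlike Epx, Prg2 and Prg3, its group mean was higher with both drugs than with AG120 alone. Irf8, a factor of monocyte and dendritic cell fate, stood at 5.99 and 7.23 in vehicle, 3.33 and 3.52 in AG120, 5.32 and 5.39 in AZA, and 4.30 and 4.07 in AG120_AZA, and fell by 2.18 ± 0.39 (adjusted p = 0.00891). The lowest Irf8 values were in the AG120 libraries, which had the highest Epx, Prg2 and Prg3 values among group means. Cebpa (0.36 ± 0.22), Cebpe (-0.49 ± 0.52), Gata2 (0.10 ± 0.36) and Spi1, which encodes PU.1 (-0.82 ± 0.25), did not pass (adjusted p from 0.0753 for Spi1 to 0.889 for Gata2).

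**Figure D4:**
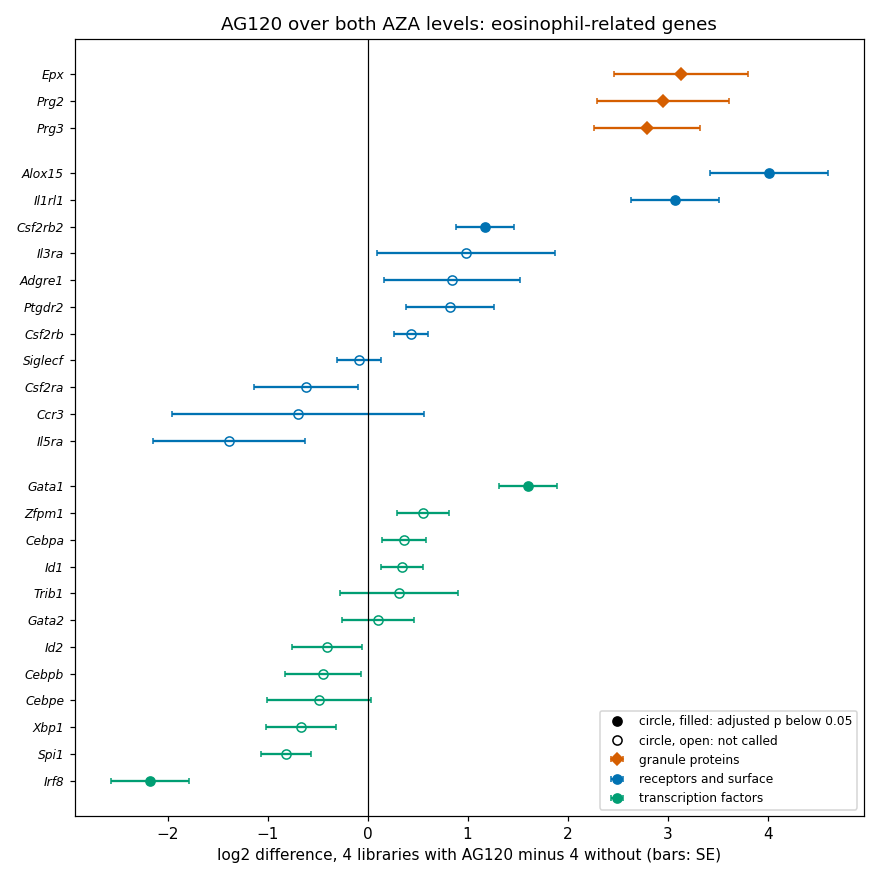
Log2 difference of the 4 libraries with AG120 minus the 4 without (horizontal axis, bars of 1 moderated SE) for Epx, Prg2 and Prg3 (diamonds), 11 receptors and surface genes and 12 transcription factors (circles, filled where the adjusted p is below 0.05). Alox15, Il1rl1, Csf2rb2 and Gata1 rose and Irf8 fell, whereas Il5ra, Siglecf and Ccr3 did not pass the test.

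Markers of other cell types moved with the same contrast, for which 3.38% of all genes rose and 2.47% fell. Of 9 measured basophil and mast cell genes, 4 rose and 0 fell with AG120 over both AZA levels (median 2.31 log2), among them Prss34, a basophil protease (4.61 ± 0.37, limma adjusted p = 1e-04), and Ms4a2, a subunit of the receptor for IgE (3.66 ± 0.24, adjusted p = 4.71e-05). Cpa3 and Hdc, which are present in both lineages' precursors, differed by 0.57 ± 0.28 and 0.87 ± 0.32 and did not pass (adjusted p = 0.243 and 0.136). The summed level of the 9 genes was 593 to 1160 CPM in vehicle, 1590 to 2440 in AG120, 1250 to 1370 in AZA and 2020 to 2530 in AG120_AZA. Most of this sum was Cpa3. Of these markers Fcer1a was at the lowest value in vehicle replicate 1 and both AZA libraries. The 5 granule genes summed to 32.3 and 367 CPM, 1150 and 2360, 177 and 248, and 478 and 1170 in the same groups, most of it Prg2. The AG120_AZA and AG120 libraries overlapped in both sums.

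Of 13 erythroid genes 6 rose and 0 fell (median 0.84), and their summed level was 1740 to 2530 CPM in vehicle, 702 to 1970 in AG120, 2030 to 4840 in AZA and 3880 to 4050 in AG120_AZA. The globin gene Hbb-bs had the highest level of this list in each library. It was not among the genes that rose (-0.80 ± 0.50, limma adjusted p = 0.369). Of 8 measured monocyte and macrophage genes, 0 rose and 5 fell (median -1.63), with Lyz2, which encodes lysozyme, at -2.10 ± 0.35 (limma adjusted p = 0.00665) and Csf1r, the receptor of macrophage colony stimulating factor, at -1.55 ± 0.30 (0.0117). Their summed level was 820 to 2540 CPM in vehicle, 457 to 625 in AG120, 1160 to 2090 in AZA and 399 to 455 in AG120_AZA. Of 13 neutrophil granule genes, 0 rose and 1 fell (median -1.67). They summed to 8990 to 26500 CPM in vehicle, 12000 to 21300 in AG120, 22300 to 25000 in AZA and 3340 to 7680 in AG120_AZA. Of the sort markers, Kit fell by 1.33 ± 0.27 (limma adjusted p = 0.0162) and Itgam differed by -0.44 ± 0.51 (adjusted p = 0.638). Cd34, a progenitor marker that the stated sort did not use, fell by 2.40 ± 0.30 (adjusted p = 0.00141). The part of these cell types in the granule gene differences was not tested.

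Profiles most like those of the members were sought among 8115 other genes with a mean of at least 3 log2 CPM, by the root mean square difference of centred log2 values over the 8 libraries. For Epx they were Cst7, which encodes cystatin F (0.91), Mcpt8, a basophil protease (0.92), and Steap3, an iron reductase (1.01), where the median gene was at 1.94. For Prg2 they were Cst7 (0.78), Mgl2 (0.90) and Il1rl1 (1.00), with the median gene at 1.87. For Prg3 they were Mgl2, a lectin of dendritic cells and macrophages (0.51), Cst7 (0.67) and Il1rl1 (0.85), with the median gene at 1.68. Cst7 had log2 CPM values of 4.28 and 6.45 in vehicle, 7.39 and 7.91 in AG120, 5.40 and 5.59 in AZA, and 7.46 and 7.23 in AG120_AZA, which repeats both the split by AG120 and the gap between the vehicle libraries.

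The profiles nearest to the ribonuclease genes were other ones. For Ear10 they were Retnlg (1.43), Mmp9 (1.45) and Ltf (1.66), genes of maturing neutrophils, with the median gene at 2.58. Retnlg had log2 CPM values of 3.06 and 0.98 in vehicle, 3.72 and 0.39 in AG120, 5.54 and 6.04 in AZA, and 1.97 and 2.37 in AG120_AZA, so it too was highest in both AZA libraries. For Ear2 they were the channel gene Trpm2 (1.41), Lgals3, which encodes galectin 3 (1.51), and Lilrb4a (1.63), with the median gene at 2.27. Ear2 and Ear10 were 2.0 apart on this measure, and Ear10 was 3.30 to 3.50 from Epx, Prg2 and Prg3, farther than the median gene. The distances of Ear2 and Ear10 include lowest values in both vehicle libraries, and for Ear10 also in AG120 replicate 2. Lowest values have no fixed size, so these distances and nearest profiles depend on how they are scaled.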

How the data were processed

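Expression in 8 libraries was measured with the QuantSeq 3' kit, per the labels' protocols. The submitters' processing notes name cutadapt 1.14, HISAT2 2.1.0, featureCounts, Subread 1.6.3, limma 3.42.2, edgeR 3.28.1 and build mm10; the sources used here name no annotation. The authors deposited log2 CPM values, already scaled to one distribution, which were used unchanged and unfiltered. Limma 3.58.1 in R 4.3.3 (lmFit, eBayes with a mean-variance trend) was fitted to all 12294 genes: 4 group means for pairwise contrasts and the interaction (4 residual, 7.06 prior degrees of freedom), and an additive model for each drug over both levels of the other (5 and 6.85). P-values were two-sided and adjusted by the Benjamini-Hochberg method over all genes; called means adjusted p below 0.05. The fit was tested on simulated data. Genes at the lowest value of a library counted as 0 in summed CPM.

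Members and lists were chosen with earlier results of these data known. The naming rule took all 5 members, all eosinophil, sort and progenitor marker genes listed, the 4 highest genes of each other list, and the 3 nearest profiles per member, skipping unnamed gene models. Other genes named (Mcpt8, Cst7 and the like) come from that rule, except Fcer1a, which was named after its values were seen. Symbols matched GENCODE M21 for 12064 of 12294 genes and 5 of 5 members; 4 of 5 members had a RefSeq promoter sequence. Alternatives were no trend, only the groups compared, a minimum mean of 3 log2 CPM, log2 of CPM plus 1, vooma weights, another centring, a replicate block and each library left out.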

Additional observations from a re-analysis of the deposited data

How the results depend on the processing

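Single-gene differences kept their sign and side of the threshold in 426 of 490 alternatives, which include differences that had no call to lose. A call was lost in 48 and gained in 7, the sign turned in 9, and the causes were not tested. In AG120 against vehicle, the call was lost in 8 of 15 alternatives for Epx and 10 of 15 for Prg3. Epx lost it in 9 of 15 for AG120_AZA against vehicle. With AG120 over both AZA levels it was lost in 4 of 14 for Epx, 4 of 14 for Prg2 and 1 of 14 for Prg3. The members called of 5 in AG120 against vehicle were 2 as reported, 0 without the mean-variance trend, 0 with only the groups compared, 0 with vooma weights, 1 with the replicate block, and 0 to 3 when 1 library was left out. In AG120_AZA against vehicle they were 1 as reported, 0 without the trend, 0 with only the groups compared, 0 with a minimum mean of 3 log2 CPM, 0 with vooma weights and 0 to 3 with 1 library left out. In AG120_AZA against AZA they were 0 as reported, 1 with only the groups compared, 1 on log2 of CPM plus 1 and 0 to 1 with 1 library left out. With AG120 over both AZA levels they were 3 as reported, 0 without the trend and 1 to 3 with 1 library left out. Counts in AZA against vehicle, AG120_AZA against AG120, AZA over both AG120 levels and the interaction were 0 in each alternative.

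The sign turned for AZA against vehicle in Prg2 (-1.01) and Prg3 (-0.81) without vehicle replicate 1 and in Prg3 (-0.04) without AZA replicate 1; with 1 library left out the range was -1.01 to 2.63 for Prg2 and -0.81 to 1.40 for Prg3. For AZA over both AG120 levels it turned in Epx with vooma weights (-0.65), without vehicle replicate 1 (-0.60) and without AZA replicate 2 (-0.28), and in Prg2 without vehicle replicate 2 (0.38), AG120 replicate 2 (0.25) or AG120_AZA replicate 2 (0.30); the range with 1 library left out was -0.60 to 0.79 for Epx and -1.07 to 0.38 for Prg2.

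Calls over all genes ranged over the alternatives from 0 to 103 (71 as reported) for AG120 against vehicle, 0 to 2 (0) for AZA against vehicle, 37 to 727 (371) for AG120_AZA against vehicle, 9 to 594 (278) against AZA, 0 to 213 (0) against AG120, 201 to 848 (719) for AG120 over both AZA levels and 0 to 29 (0) for the interaction. The replicate numbers in the labels are not said to mark a shared mouse or batch, and the replicate gaps of the groups correlated at -0.111 to 0.194 across genes, so the replicate block is only an alternative.

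Of the 7 other genes run through these alternatives after their values were seen, Alox15, Il1rl1 and Cd34 kept their calls with AG120 over both AZA levels in each; Csf2rb2 lost it in 7 of 14, Kit in 3, and Gata1 and Irf8 in 1 each. Where a library left out leaves a group with 1 sample, that sample is assumed to vary like the other groups. Single differences of Ear2 and Ear10 against vehicle, and of Ear10 against AG120, are not given, since those libraries were at or near the lowest value; the counts of 5 include both genes, which do not pass the minimum mean of 3. Counts in contrasts with vehicle libraries restate the choice of the genes. A group of 2 libraries and few value classes limit what can be seen for the Ear genes.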
